A study of Homo sapiens with 121 samples.

Results

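The cytosolic ribosomal protein genes encode the protein part of the ribosome, and 84 such genes were found among the 25610 genes read in 121 single human embryonic stem cells (hESCs). They were chosen by symbol alone: RPL or RPS with a number and an optional A, X or L and further digits, together with RPLP0, RPLP1, RPLP2 and RPSA and without the Y-linked forms of RPS4. Of the 84 genes, 31 encode proteins of the small 40S subunit, 46 encode proteins of the large 60S subunit and 7 are copies of such genes at other loci. FAU, GNB2L1 and RPL36AL also encode ribosomal proteins, but their symbols do not match the rule and they are given apart.

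In the ribosome, the 40S subunit binds the mRNA and checks the pairing of tRNA with codon, and the 60S subunit joins the amino acids. The ribosomal proteins are needed in nearly equal amounts, and their short, abundant mRNAs are known to begin with a C followed by an unbroken run of pyrimidines, the 5′ terminal oligopyrimidine (TOP) motif. Through this motif the kinase mTOR and the RNA-binding protein LARP1 adjust how strongly the mRNAs are translated, and MYC is known to raise their transcription in growing cells.

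All cells came from WA26, a hESC line kept undifferentiated in E8 medium on Matrigel, and no treatment or genotype separates the groups. scT&R-seq separated the polyadenylated mRNA of each cell from its genomic DNA, sequenced the mRNA after a Smart-seq2 amplification and measured telomere length in the DNA by qPCR. The labels give 81 Long, 25 Medium and 15 Short telomere cells. Neither a culture nor a batch is named, so each group counts as 1 sample: the cells are not replicates of it, no test was made, and values are described with their SD or range over cells.

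All 7 pluripotency markers, from POU5F1 and NANOG to TDGF1, were above TPM 1 in most cells of each group, with a summed TPM of 798 to 3919 in Long, 816 to 3940 in Medium and 548 to 2658 in Short cells. Their medians were 2801, 2381 and 1210 TPM in this order, and the part of this difference in the results was not tested. None of the 8 markers of differentiated cells reached most cells of a group, and GATA6 was listed at 0 in every cell. The number of genes above TPM 1, called detected genes here, had a median of 9165 in Long, 8626 in Medium and 5620 in Short cells. It lay above 8000 in 68 cells (51 Long, 14 Medium and 3 Short), called gene-rich, and at or below 8000 in 53 cells (30 Long, 11 Medium and 12 Short), called gene-poor. Telomere group and number of detected genes were therefore partly aligned, so the telomere comparison is given over all cells and within each set.

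The first bases of the transcripts are shown for members whose levels are described later and for 3 copies, since the TOP motif sets the family apart from other genes. Each window holds 15 bases before the start and the next 15 bases in RefSeq (GRCh38.p14), written 5′ to 3′ on the gene's own strand, and capitals mark the longest run of at least 5 C or T.
RPS27 (chr1:153990747-153990776, plus strand): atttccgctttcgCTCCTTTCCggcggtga
RPS12 (chr6:132814554-132814583, plus strand): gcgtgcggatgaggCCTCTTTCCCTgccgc
RPLP1 (chr15:69452803-69452832, plus strand): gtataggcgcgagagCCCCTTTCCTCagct
RPS6 (chr9:19380222-19380251, minus strand): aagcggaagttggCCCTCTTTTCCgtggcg
RPL39 (chrX:119791616-119791645, minus strand): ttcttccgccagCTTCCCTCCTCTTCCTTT
RPL35 (chr9:124861943-124861972, minus strand): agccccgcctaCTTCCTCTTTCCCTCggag
RPS15 (chr19:1438381-1438410, plus strand): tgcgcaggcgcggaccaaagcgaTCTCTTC
RPL22L1 (chr3:170870181-170870210, minus strand): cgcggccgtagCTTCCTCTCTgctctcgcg
RPS27L (chr15:63157463-63157492, minus strand): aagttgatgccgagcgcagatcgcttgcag
RPL7L1 (chr6:42879601-42879630, plus strand): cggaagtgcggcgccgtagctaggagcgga
Of the 67 members with a start in RefSeq, 62 were no copies, and 61 of these (98.4%) had a run of at least 5 pyrimidines in the window, against 54.7% of 27305 genes with a start. A run of at least 8 pyrimidines stood in 82.3% of these members and in 16.5% of all genes. Among the 5 copies with a start, 2 had a run of at least 5. A run of these letters is a description of the window. Of the members lowest in Long relative to Short cells, RPL35 had a run of 15 bases. RPS15 had a run of 7 up to the last base of its window, so its full length was not seen.

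The family was among the most abundant in the cells. A mean TPM of at least 1000 was reached by 69 members, and 71 were above TPM 1 in every cell. The highest mean TPM belonged to RPS27, a zinc finger protein of the 40S subunit, with 6338, followed by RPL5 with 6142, RPL41 with 5492, RPLP1 with 5486 and RPS12 with 5353. The 10 highest members made up 24.1% of the summed mean TPM. At the low end, RPL3L was above TPM 1 in 7 cells and RPL10L in none, and 12 members were listed at 0 in at least 1 cell.

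The share of all TPM taken by the family differed mainly between the sets of gene-rich and gene-poor cells. In gene-rich cells the 84 genes held 14.7% to 30.6% of the TPM with a median of 26.8%, and in gene-poor cells 8.08% to 39.6% with a median of 16.1%. The ranges overlapped, and both the lowest and the highest share were found in Short, gene-poor cells. By telomere group the median share was 25.8% in Long and 25.8% in Medium cells, and Short cells were lower at 18.1%. Among gene-poor cells alone the Long, Medium and Short medians were 15.7%, 15.9% and 16.4%, and among gene-rich cells 27.2%, 27.1% and 26.0%, so that the gap seen over all cells was not found within either set.

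**Figure D1:**
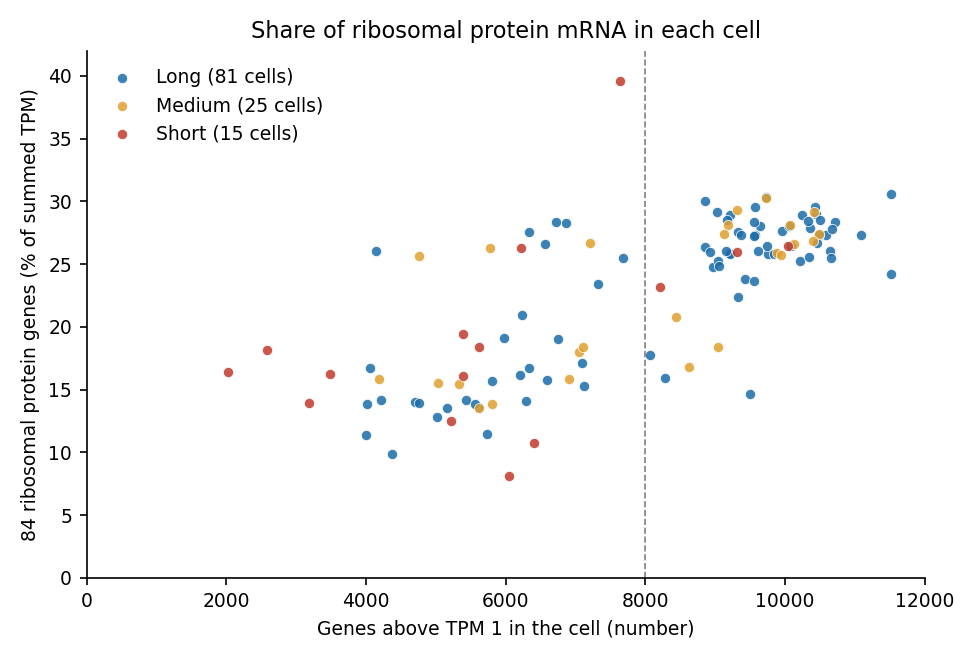
Share of the summed TPM held by the 84 ribosomal protein genes (vertical axis, percent) against the number of genes above TPM 1 (horizontal axis) in each of 121 cells, coloured by telomere label, with a dashed line at 8000 genes. Most cells to the right of the line lie near the gene-rich median of 26.8%, while the cells to its left spread from 8.08% to 39.6% around 16.1%.

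Over the 121 cells the summed TPM of the family had a Pearson coefficient of 0.730 with the number of detected genes (Spearman's rho 0.703). The coefficient was 0.459 among gene-rich and 0.398 among gene-poor cells, and 0.786 within Long, 0.685 within Medium and 0.520 within Short cells. These are descriptions over cells, whose TPM share the same total in every cell. The balance between the subunits moved little: the 40S proteins held a median of 45.9% of the family's TPM in gene-rich and 45.4% in gene-poor cells, and 45.6%, 45.8% and 46.0% in Long, Medium and Short cells. The range of this share was 43.6% to 48.1% in gene-rich cells and wider, 36.6% to 53.9%, in gene-poor cells.

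Gene by gene, expression was compared on log2(TPM + 1), on which low genes appear to change less than they did, and a member was called higher or lower when the group means differed by at least 1.5 times (0.58 on the log2 scale). Between Long and Short cells, 51 of the 84 members were higher in Long and 1, RPS15, was lower, and the median difference was 0.73. Over the 6213 genes whose mean TPM reached 10, 79.3% were higher and 3.64% were lower, with a median of 1.40, so the family stood below the background in its share of higher members. The 263 other genes whose mean TPM reached 500, which are closer in abundance, had a median of 0.70, and 77 genes of the mitochondrial ribosome, a separate machine, had a median of 1.42.

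The direction of this comparison depended on the scale. On a median-ratio scale, in which the 602 genes found in every cell (72 of them members) set the size of each cell, 13 members were higher and 13 lower in Long cells and the median turned to -0.022, while the median over all genes moved from 1.40 to 1.02. On that scale 65.2% of all genes were higher and 9.08% lower. Differences of single members between Long and Short cells are therefore best read against each other.

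Long and Medium cells differed little. RPL7L1 was the member higher in Long cells (0.66), RPL21 the member lower (-0.68), and the median difference was 0.01, against backgrounds of 13.2% higher and 3.94% lower. Between Medium and Short cells, 51 members were higher in Medium and 0 lower, with a median of 0.68 and backgrounds of 75.8% and 4.22%. The Short group had the lowest mean for 76 members and the highest for 5. Of the 6213 background genes, 5650 had a Long mean above the Short mean and 5591 a Medium mean above it. Most genes of the table thus also had lower means in Short cells. The Long mean lay above the Medium mean for 4026 of these genes and below it for 2182. The order Long, Medium, Short from high to low was found for 47 members, and Medium, Long, Short for 29.

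Between gene-rich and gene-poor cells, 60 members were higher in gene-rich cells and 0 lower, with a median difference of 0.85. The backgrounds were 82.1% and 2.41% and the median of all genes was 1.45. The 263 other abundant genes had a median of 0.26, so here the family lay above genes of like abundance and below all genes. On the median-ratio scale the direction was kept, with 43 members higher, 0 lower and a median of 0.59. All genes on that scale were 76.8% higher and 4.04% lower with a median of 1.28, so the family again stood below the background. Both comparisons called 48 members higher, 3 members (RPL3, RPS10 and RPS18) were higher in the telomere comparison alone, 12 in the comparison by detected genes alone, and 20 passed the fold in neither.

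**Figure D2:**
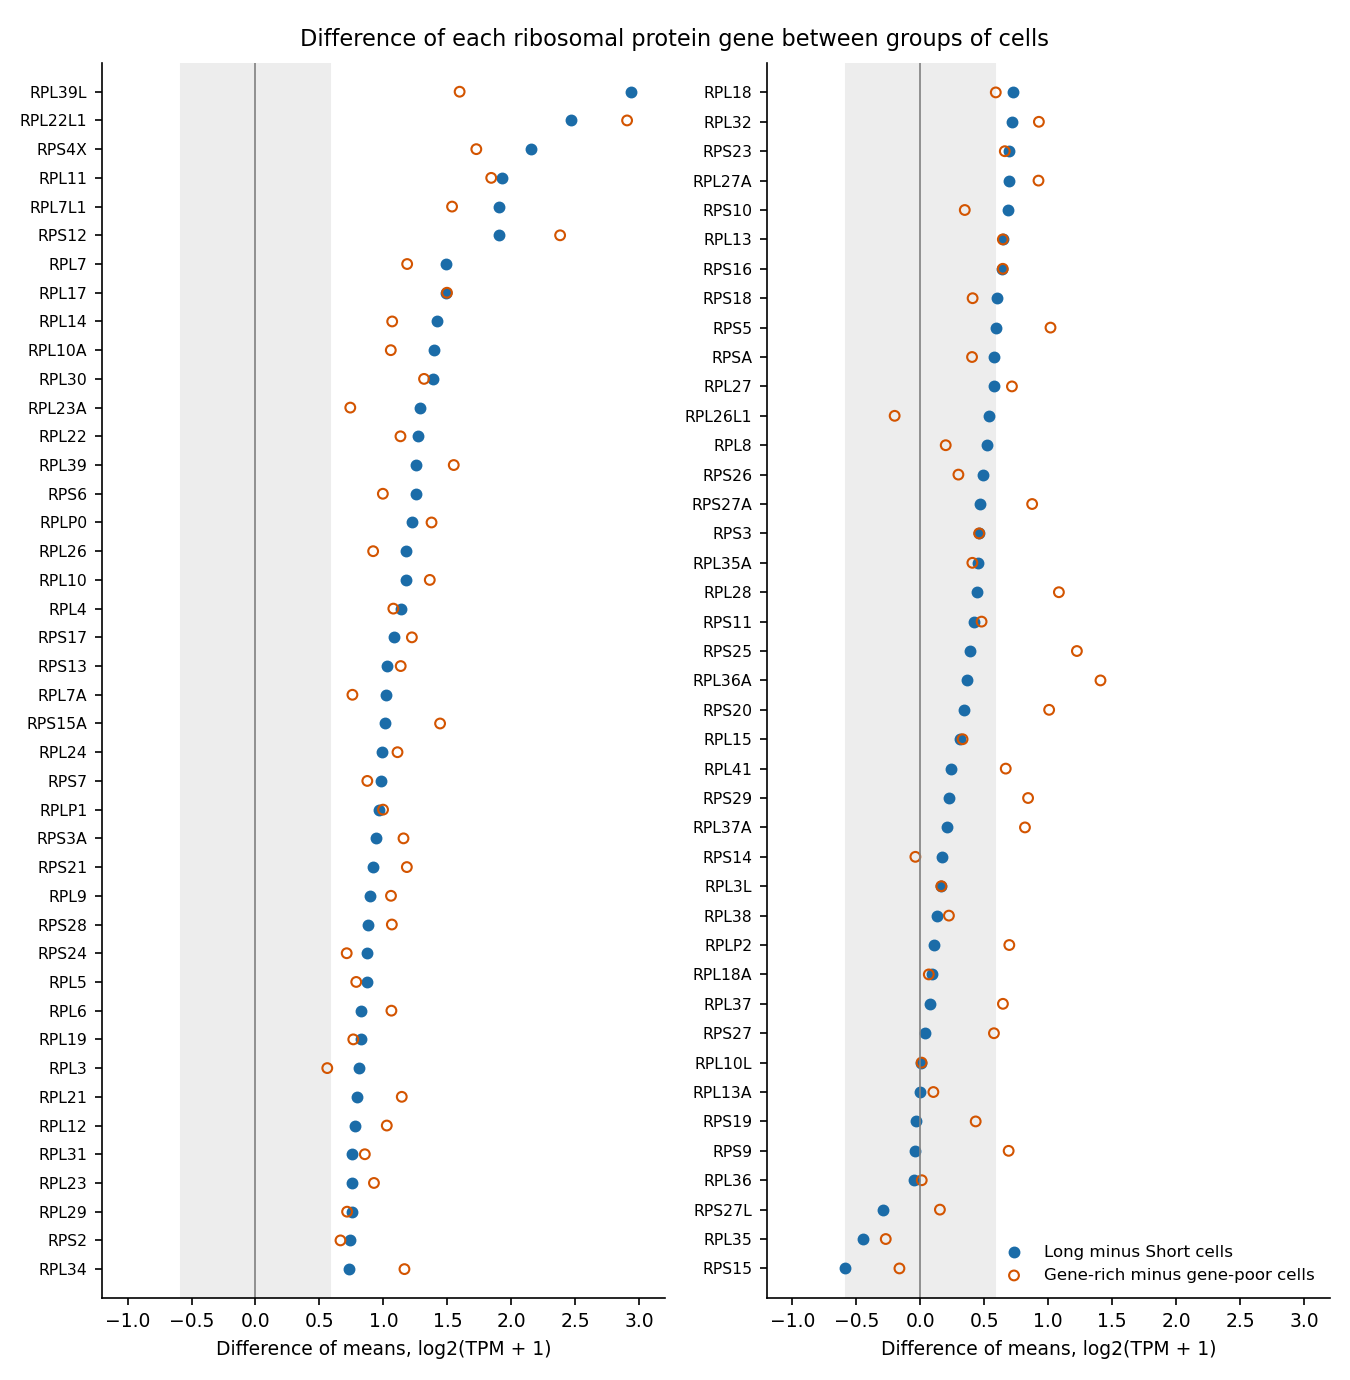
Difference of mean log2(TPM + 1) for the reported ribosomal protein genes between Long and Short cells (filled points) and between gene-rich and gene-poor cells (open circles), ordered by the former over both panels. The grey band marks differences under 1.5 times: 51 filled points lie to its right and RPS15 to its left, and under the median-ratio scale these numbers become 13 and 13.

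Within gene-poor cells, where 30 Long and 12 Short cells could be set side by side, 34 members were higher in Long and 2 lower, RPS15 and RPL35, with a median of 0.51 (backgrounds 66.3% and 8.05%). These calls compare means of logs, while the family's median share there was 15.7% in Long and 16.4% in Short cells. Medians went with the call for RPL11 (1556 TPM in Long, 623 in Short) but not for RPL24 (1545 and 1706 TPM, difference 0.65). Within gene-rich cells, with 3 Short cells, 2 members were higher (RPL26L1 and RPS26) and RPL21 was lower, with a median of 0.09 (backgrounds 23% and 16.8%). Values of 0 entered 2 of these calls. RPL26L1 had medians of 195 TPM in Long and 194 in Short cells, with the lowest Short cell at 0. RPL21, treated further on, reached 0 in Long cells and was at least 609 TPM in Short ones. The members' spread also differed between the sets. The SD over cells was larger in gene-poor cells for 82 of the 84 members, with a median of 1.07 against 0.35 in gene-rich cells. The difference between Long and Short cells exceeded the SD of both groups for 1 member, RPL39L, whereas 15 members exceeded the SD of both sets in the comparison by detected genes, among them RPS12, RPS6, RPS27A, RPLP0 and RPL27A.

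RPS15, a 40S head protein near the decoding site (chr19:1438357-1440494 in GRCh37, plus strand), was the member lowest in Long relative to Short cells. Its TPM ran from 1268 to 5211 with a median of 3448 in Long cells, from 2871 to 15228 with a median of 3587 in Medium cells and from 1508 to 12032 with a median of 5553 in Short cells. Short cells thus held the highest median, but the groups overlapped, and the difference was -0.59 with SDs of 0.33 in Long and 0.84 in Short cells. The Long cell was higher in 25.4% of the 1215 pairs of a Long and a Short cell. Within gene-poor cells the medians were 3124 in Long and 6698 TPM in Short cells, a difference of -0.92. In gene-rich cells it was 0.38, with medians of 3536 and 3270 TPM. The study had already named RPS15 and RPL38 on these cells, both as negatively correlated with the measured telomere length of each cell. That measure was not used here. Between the Long and Short labels RPL38 differed by 0.13, under the fold, and by -0.64 on the median-ratio scale.

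RPL35, a 60S protein at the exit of the tunnel for the new protein (chr9:127620159-127624260, minus strand), had a similar pattern. Its TPM ran from 1545 to 8501 with a median of 3508 in Long cells, from 1439 to 10310 with a median of 3449 in Medium cells and from 399 to 17287 with a median of 4807 in Short cells. Short cells spread on both sides of the other groups, and the difference of -0.45 was smaller than the SD of 1.42 in Short cells. RPL35 also had the lowest coefficient with the number of detected genes, -0.27, and it was -0.12 within gene-rich and -0.24 within gene-poor cells.

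RPL36 and RPS9 had differences of -0.05 and -0.04 between Long and Short cells, and RPL38, a 60S protein known for its part in the translation of Hox mRNAs, 0.13. RPL38 had medians of 3131, 3928 and 3210 TPM in Long, Medium and Short cells, and its range in Short cells, 88.7 to 7270 TPM, covered both other groups. On the median-ratio scale these differences became -0.82, -0.81 and -0.64. RPS9 passed the fold in the other comparison: its median was 1511 TPM in gene-rich and 987 in gene-poor cells, a difference of 0.69. RPS14, a 40S protein, was under the fold in both, with a median of 4653 TPM in gene-rich and 5118 in gene-poor cells (-0.04), and 4716 in Long and 5118 in Short cells (0.17), but on the median-ratio scale its difference between Long and Short cells was past the fold at -0.59.

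At the other end of the order stood RPS4X, RPL11 and RPS12. RPS4X, the X-linked gene of a 40S body protein (chrX:71475529-71497098, minus strand), had TPM of 9.62 to 5016 with a median of 3108 in Long, 529 to 3798 with a median of 2626 in Medium and 0 to 3820 with a median of 1252 in Short cells. The upper ends of the groups lay close together, and the lowest values were found in Short cells. The difference was 2.15, smaller than the SD of 3.59 in Short cells, and 1.61 on the median-ratio scale. Within gene-rich cells it was -0.051, and within gene-poor cells 1.96. Gene-rich cells had a median of 3177 and gene-poor cells of 1252 TPM.

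RPL11, which with RPL5 carries the 5S rRNA into the 60S subunit and holds back MDM2 when ribosome production is disturbed, had TPM of 32.1 to 7355 with a median of 4282 in Long, 738 to 6078 with a median of 3656 in Medium and 4.26 to 7823 with a median of 687 in Short cells. The highest single value was in a Short cell, so the groups overlapped over nearly their whole range. The difference was 1.93 (SD 1.28 in Long and 3.03 in Short cells). Its partner RPL5 differed by 0.87, with medians of 6414, 6264 and 4207 TPM in Long, Medium and Short cells. Within gene-rich cells both had differences below 0, -0.17 for RPL11 and -0.30 for RPL5.

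RPS12, a protein of the 40S head, differed most between gene-rich and gene-poor cells among members that are not copies. Its TPM ran from 1216 to 12537 with a median of 7990 in gene-rich cells and from 6.40 to 11910 with a median of 1313 in gene-poor cells. The sets overlapped, but the gene-rich cell was higher in 89.1% of pairs, and the difference was 2.38 with SDs of 0.78 and 1.92. By telomere label the Long, Medium and Short medians were 7481, 5751 and 1545 TPM, a difference of 1.90 between Long and Short. RPS12 had a coefficient of 0.73 with the number of detected genes, 0.48 within gene-rich and 0.42 within gene-poor cells.

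**Figure D3:**
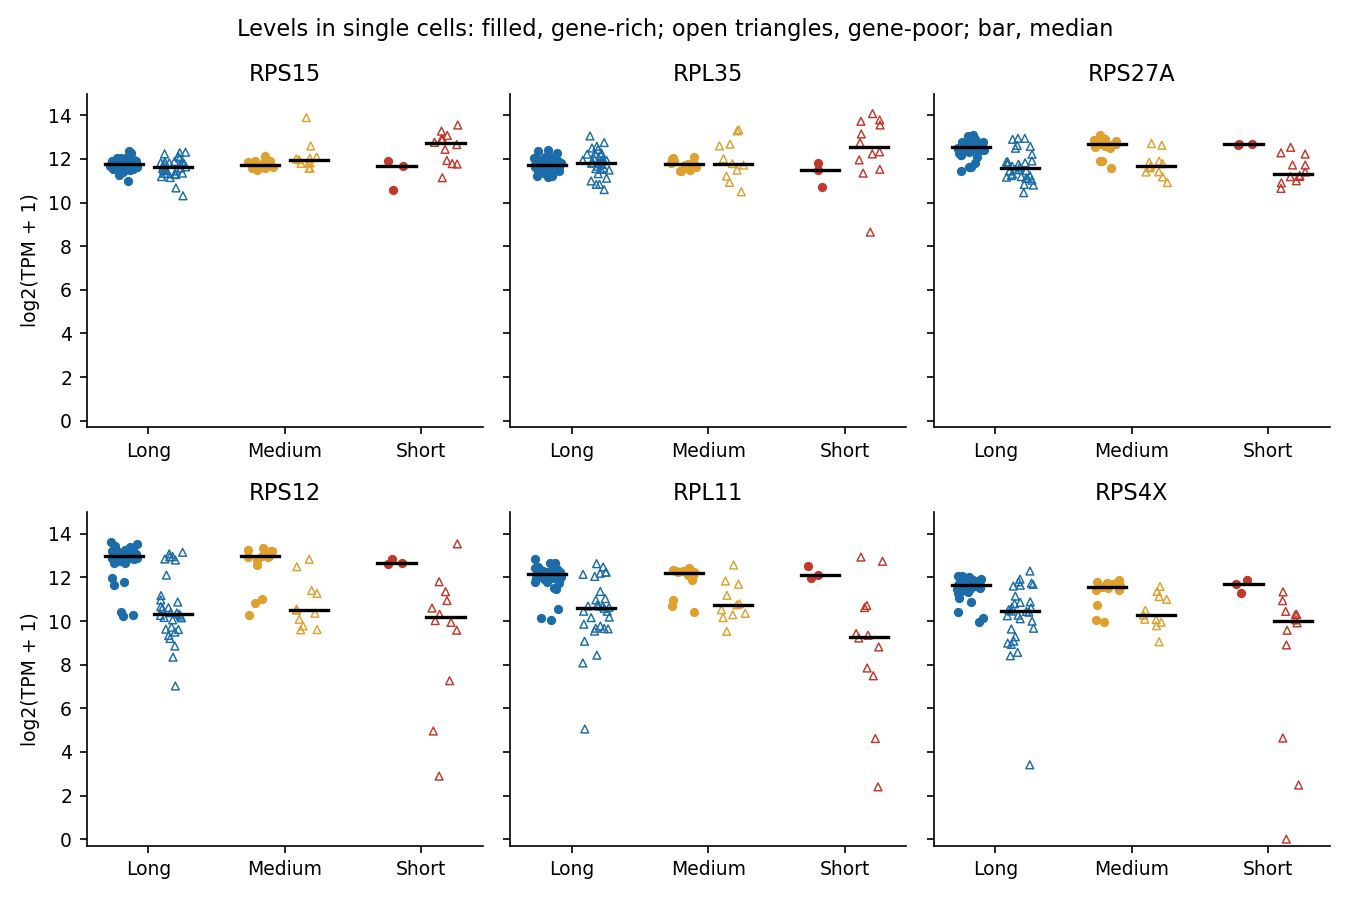
log2(TPM + 1) of 6 ribosomal protein genes in single cells by telomere label, with gene-rich cells as filled circles, gene-poor cells as open triangles and a bar at each median. By median, RPS15 and RPL35 are highest in Short, gene-poor cells (6698 and 5997 TPM), and RPS27A is lower in gene-poor cells of each label. RPS12, RPL11 and RPS4X have lower medians in gene-poor cells and reach their lowest levels in Short ones. Single cells cross over: gene-poor Long_46 has RPS12 at 13.2 and RPS27A at 12.9, and gene-rich Long_70 has RPS12 at 10.3.

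The most even member was RPS27A, which is made as a fusion with ubiquitin. Its share of the family's TPM had the smallest SD over cells, 0.35 on the log2 scale, and its TPM had a median of 6151 in gene-rich and 3084 in gene-poor cells (0.87). RPL27A, RPLP2 and RPS27 were also even, with SDs of 0.40, 0.42 and 0.43. RPL27A, at a median of 423 TPM in gene-rich and 215 in gene-poor cells, had the highest coefficient with the number of detected genes, 0.75. For the 84 members this coefficient had a median of 0.51, was positive for 80 and negative for RPL35, RPS15, RPS14 and RPS27L. Most genes of the table were positive as well. Over the 6213 genes whose mean TPM reached 10 it was positive for 5778 and negative for 435, with a median of 0.42.

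Most members moved together from cell to cell. The Pearson coefficient of a member with the sum of the other members had a median of 0.66 and was highest for RPS15A (0.88), RPS21 (0.87) and RPS12 (0.86). It was near 0 for RPS15 (0.04) and RPL35 (0.06), and below 0 for RPL21 (-0.14) and RPL13A (-0.06), whose rows are treated further on. These coefficients are over 121 cells that share a fixed total, and they describe likeness of level and nothing of shared control.

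When each member was expressed as its share of the family's TPM, 29 members took a larger and 3 a smaller share in Long than in Short cells (backgrounds 70% and 5.92% for all genes over the same sum). Shares were compared as means of log2 values over cells, which need not balance as shares of a total do. On this scale 66 of the 84 members were above 0 and 18 below, with a median of 0.43. Of the 6213 genes whose mean TPM reached 10, 5358 were above 0 and 855 below, with a median of 1.10. The smaller shares were those of RPS15 (-0.89), RPL35 (-0.75) and RPS27L (-0.59), and the largest gains those of RPL39L (2.64), RPL22L1 (2.17), RPS4X (1.85) and RPL11 (1.63). Between gene-rich and gene-poor cells, 15 members took a larger share and 6 a smaller one (backgrounds 61.2% and 7.89%). The smaller shares belonged to RPL35 (-0.88), RPL26L1 (-0.81), RPS15 (-0.77), RPS14 (-0.64), RPL36 (-0.59) and RPL10L, which was listed at 0 in 120 cells and so moved with the sum alone. RPL22L1 (2.30), RPS12 (1.78), RPL11 (1.24), RPS4X (1.12) and RPL39L (0.99) gained most.

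The members were also grouped by place in the ribosome, and the counts of each group stand against the 79.3% of all genes that were higher and the 3.64% that were lower in Long cells, with a median of 1.40. Of the proteins around the exit of the 60S tunnel, where new proteins leave and meet their chaperones, 8 of 9 were higher in Long than in Short cells, with RPL35 as the exception, and the median of 1.17 lay below that of all genes. RPL17 (1.49), RPL23A (1.29), RPL22 (1.27) and RPL39 (1.26) led this group, and RPL23A had medians of 2396, 2701 and 1586 TPM in Long, Medium and Short cells. In the 60S stalk, which recruits the elongation factors, RPLP0 (1.22), RPLP1 (0.96) and RPL12 (0.78) were higher and RPLP2 was not (0.10). All 4 stalk genes were higher in gene-rich cells, by 0.70 for RPLP2 to 1.38 for RPLP0. RPLP1 and RPLP2, which pair with each other on the stalk, had medians of 6311 and 3840 TPM in Long and 3659 and 3462 in Short cells.

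Of the 40S head proteins, which hold the mRNA entry and the tRNA path, 7 of 14 were higher and RPS15 was lower in Long cells, with a median of 0.53. Of the 40S body proteins 10 of 17 were higher, with a median of 0.74, from RPS9 to RPS4X. RPS6, the classical substrate of the S6 kinases, had medians of 4661, 4142 and 2531 TPM in Long, Medium and Short cells (1.25). The remaining 31 proteins of the 60S subunit had 18 higher members and a median of 0.72, led by RPL7 (1.49) and RPL14 (1.42). On the median-ratio scale the medians of these groups were 0.52 for the tunnel exit and 0.11 for the stalk. They were -0.24 for the head, -0.03 for the body and -0.05 for the remaining 60S proteins. The sign was thus kept for the first pair and changed for the other groups, but all of these medians were under the fold. Those of the body and the remaining 60S proteins were too small to give a direction. On that scale 3 of the tunnel exit proteins were higher and 1 lower, 0 and 1 of the stalk, 1 and 2 of the head, 1 and 3 of the body and 4 and 5 of the remaining 60S proteins, against 65.2% and 9.08% of all genes. By detected genes, 8 of 9, 4 of 4, 9 of 14, 11 of 17 and 23 of 31 were higher in gene-rich cells in this order, and none was lower, against 82.1% and 2.41% of all genes.

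Base composition was set beside the order of the members. The first 60 coding bases (GRCh37 annotation, sense strand, 5′ to 3′, G and C in capitals) are shown for 3 members rich in G and C from the lower end of the order and for RPS12 and RPL39, members poorer in G and C that were higher in Long and in gene-rich cells.
RPS15 (chromosome 19): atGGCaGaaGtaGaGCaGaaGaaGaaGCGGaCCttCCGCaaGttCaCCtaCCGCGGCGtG
RPL36 (chromosome 19): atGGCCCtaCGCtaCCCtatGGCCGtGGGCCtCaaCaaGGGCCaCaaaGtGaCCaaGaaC
RPL35 (chromosome 9): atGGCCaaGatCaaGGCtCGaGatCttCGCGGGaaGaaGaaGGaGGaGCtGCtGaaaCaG
RPS12 (chromosome 6): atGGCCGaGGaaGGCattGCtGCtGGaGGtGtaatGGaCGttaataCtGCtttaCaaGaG
RPL39 (chromosome X): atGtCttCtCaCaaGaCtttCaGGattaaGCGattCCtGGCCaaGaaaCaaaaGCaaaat
Over the whole coding sequence G and C made up 63.0% in RPS15, 59.7% in RPL36 and 57.2% in RPL35, against 46.7% in RPS12 and 42.5% in RPL39. RPS15 had the highest value of all 84 members. The order was not strict: RPS27L, near the lower end, had 42.1%, and RPS4X and RPL11, near the upper end, had 48.5% and 50.7%.

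Across the 77 members that are not copies, coding GC had a Pearson coefficient of -0.47 with the difference between Long and Short cells (rho -0.47) and of -0.52 with the difference between gene-rich and gene-poor cells (rho -0.54). It was -0.40 for Long against Short within gene-poor cells and 0.27 within gene-rich cells, which include 3 Short cells. In the 25 members with the lowest GC (42.5% to 47.9%) the median differences were 0.88 and 1.13, in the middle 27 members 0.75 and 0.87, and in the 25 members with the highest GC (54.2% to 63.0%) 0.52 and 0.59. The number of members higher in gene-rich cells was 23 of 25, 21 of 27 and 13 of 25, against 82.1% of all genes. All points rest on the same cells, so these coefficients are descriptions over genes.

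The relation was weaker in the rest of the table. Over 5724 other genes whose mean TPM reached 10 the coefficients were -0.14 and -0.17, and over 244 of the other abundant genes they were -0.33 and -0.24. Coding length had a coefficient of 0.30 with the Long and Short difference over the 77 members, of 0.39 with the same difference within gene-poor cells and of 0.01 with the difference by detected genes. The part of base composition or length in any of these differences was not tested.

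**Figure D4:**
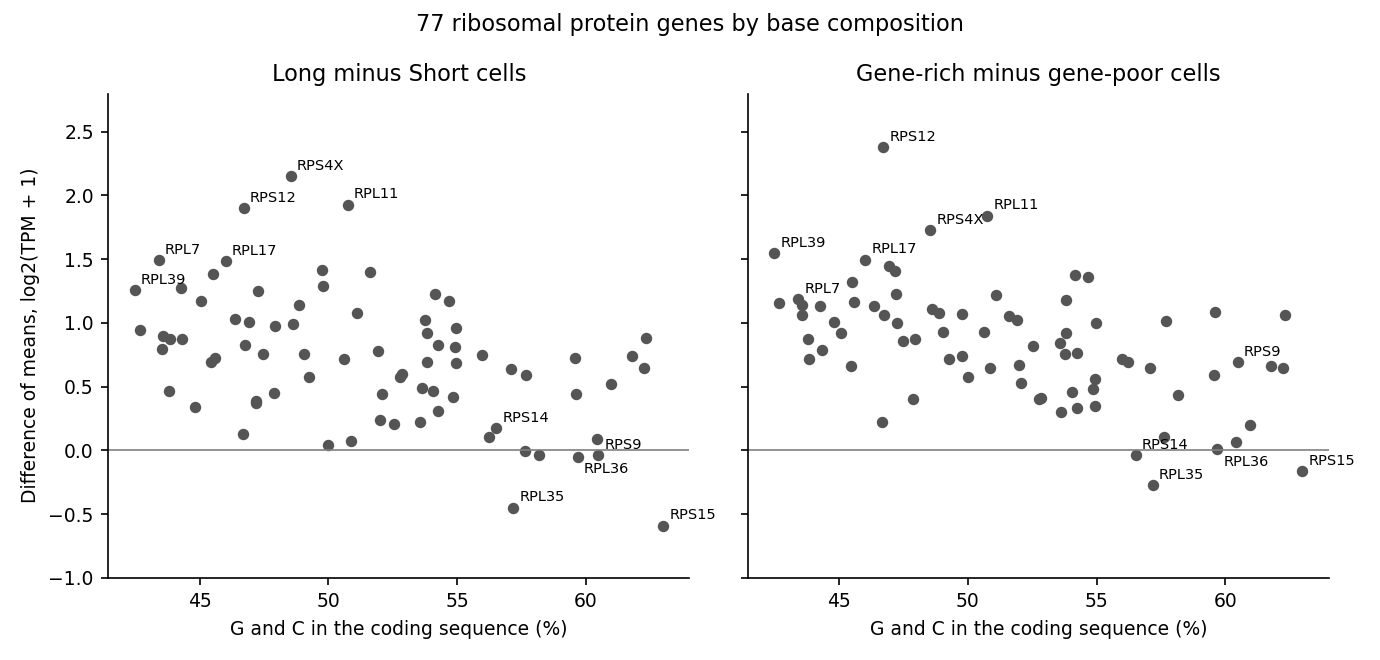
Difference of mean log2(TPM + 1) against the G and C content of the coding sequence for 77 ribosomal protein genes that are not copies, between Long and Short cells (left) and between gene-rich and gene-poor cells (right). Differences are lower at higher GC, with coefficients of -0.47 and -0.52, and RPS15, with 63.0% GC, lies at the lower right of both panels. Under the median-ratio scale the median of all 84 members in the left panel moves from 0.73 to -0.022.

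The 7 copies held a small part of the mRNA of their parents. RPL22L1, which can take the place of RPL22, made up a median of 12.9% of the TPM of the pair, RPL26L1 6.98%, RPL7L1 2.65%, RPS27L 2.23% and RPL39L 2.09%. RPL3L, known from muscle, and RPL10L, known from testis, were at 0 in 105 and 120 cells. A copy exceeded its parent in 2 cells for RPL39L and 1 cell for RPL26L1.

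RPL39L and RPL22L1 had the largest differences of the 84 members between Long and Short cells. RPL39L ran from 0 to 682 TPM with a median of 84.8 in Long, from 0 to 502 with a median of 69.0 in Medium and from 0 to 260 with a median of 3.84 in Short cells. Its groups shared the value 0, and the Long cell was higher in 79.1% of pairs, with a difference of 2.94. Within gene-poor cells the median was 111 TPM in Long and 0.965 in Short cells (3.39), and within gene-rich cells the difference was -0.017. Its parent RPL39 differed by 1.26.

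RPL22L1 had medians of 62.7, 44.3 and 5.32 TPM in Long, Medium and Short cells (2.47 between Long and Short), and each group had cells below TPM 1. It was 21.2 to 227 TPM with a median of 83.3 in gene-rich and 0 to 138 with a median of 13.7 in gene-poor cells, a difference of 2.90, the highest of the family. Its parent RPL22 differed by 1.13 between these sets. RPL7L1 differed by 1.91 between Long and Short cells, with medians of 118 and 39.7 TPM. RPS27L, known as a target of p53, had medians of 140, 149 and 235 TPM in Long, Medium and Short cells (-0.29), and RPL26L1 medians of 192 in gene-rich and 282 TPM in gene-poor cells (-0.20).

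RPL21 was the most uneven member, and its row cannot be read alone. It was listed at 0 in 27 cells and reached 5296 TPM in others, with an SD of 4.39 on the log2 scale. The table has a row for RPL21P28, a processed copy whose mean of 3602 TPM was above the 1185 TPM of RPL21 itself, and no cell had both at 0. The share of RPL21 in the sum of both rows ran from 0% to 100% with a median of 20.2%. Summed, the rows had an SD of 0.82, and the sum was 1199 to 10491 TPM with a median of 5234 in Long cells and 213 to 7796 with a median of 2313 in Short cells. The sum differed by 1.11 between Long and Short cells and by 0.84 between gene-rich and gene-poor cells, with a coefficient of 0.58 with the number of detected genes, where RPL21 alone had 0.11.

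RPL13A also has a processed copy with a row of its own, RPL13AP5, which had a mean of 2128 TPM against 882 for RPL13A. RPL13A was at 0 in no cell, and its coefficient with RPL13AP5 was -0.30. Their sum differed by -0.08 between Long and Short cells and by 0.52 between gene-rich and gene-poor cells, where RPL13A alone had 0.00 and 0.10. RPL26 with RPL26L1 gave 0.79 and 0.69, where RPL26 alone gave 1.17 and 0.92. The annotation names a median of 12 pseudogenes per member, up to 133 for RPL21, and none for 6 members, so reads of other members could be shared with near-identical sequences as well. How reads were divided between such rows was not tested, and the values of RPL21 and RPL13A are uncertain.

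Genes that work with the ribosome were compared in the same way. All 17 translation factors and other TOP mRNAs, from EEF1A1 and EEF2 to PABPC1 and TPT1, were higher in Long than in Short cells, with a median of 1.62, and all 17 were higher in gene-rich cells, with a median of 1.10. Over all genes 79.3% were higher in Long cells, with a median of 1.40, and 82.1% in gene-rich cells, with a median of 1.45, so most genes went the same way as these lists. On the median-ratio scale 10 and 12 of the 17 were higher and none lower. Of all genes on that scale, 65.2% were higher and 9.08% lower in Long cells, and 76.8% higher and 4.04% lower in gene-rich cells. Within gene-poor cells 14 of the 17 were higher in Long cells (median 1.49, background 66.3%). Within gene-rich cells, with 3 Short cells, 2 of the 17 were (median 0.17, background 23%). EEF1A1, which brings tRNA to the ribosome, had medians of 3083, 2651 and 1718 TPM in Long, Medium and Short cells. Of 36 genes of ribosome assembly 30 were higher in Long and none lower (median 1.16, against 79.3% and a median of 1.40 over all genes). On the median-ratio scale 19 of the 36 were higher and 3 lower, against 65.2% and 9.08% of all genes. Among the assembly genes NPM1, a nucleolar chaperone, differed by 1.30, and NCL, the nucleolar RNA-binding protein nucleolin, by 0.37. Within gene-poor cells 21 of the 36 assembly genes were higher in Long and 3 lower (median 0.72, backgrounds 66.3% and 8.05%). Within gene-rich cells 11 were higher and 3 lower (median 0.28, backgrounds 23% and 16.8%).

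Of 9 regulators of ribosomal protein synthesis, 8 were higher in Long than in Short cells and none lower (median 1.71, against 79.3% and 1.40 over all genes), and on the median-ratio scale 7 were higher and 0 lower, against 65.2% and 9.08% of all genes. MYC differed by 3.04 and LARP1 by 1.86, with medians of 38.4 TPM of LARP1 in Long, 35.1 in Medium and 15.9 in Short cells. EIF4EBP1, which holds back cap-dependent translation, differed by 0.69 between Long and Short cells and by -0.30 between gene-rich and gene-poor cells. The ranges of LARP1 overlapped between the groups. Within gene-poor cells 7 of the 9 regulators were higher in Long and 0 lower (median 1.24, backgrounds 66.3% and 8.05%). Within gene-rich cells, with 3 Short cells, 2 were higher and 1 lower (median 0.14, backgrounds 23% and 16.8%).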

How the data were processed

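Single WA26 cells were profiled by Smart-seq2 of their mRNA, and the labels gave the telomere group of each cell. The values are TPM (transcript abundance scaled to a fixed total) per gene and cell, made by the authors before deposit. The submitters' processing notes name TopHat2, RSEM and hg19, and the study's methods name TopHat and HTSeq. TPM keeps no read numbers, so the reads behind a value cannot be had from these values, and the depth of each cell was not used here. The sum over genes was 979828 to 997050 TPM per cell. In all, 25610 genes were read, up to ZFR in alphabetical order; later genes were not analysed here. A row cut short (1) was left out. No pair of cells was identical (0 pairs), and 0 columns lacked a sample.

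Means of log2(TPM + 1) were compared between groups and between cells above and up to 8000 detected genes. No p-value was computed, since each telomere group counts as 1 sample. A member was called at 1.5 times, and backgrounds were taken over genes with a mean of at least 10 TPM. Python 3.11.15 was used with numpy 2.4.6, pandas 2.3.3, scipy 1.17.1 and matplotlib 3.10.9, and the steps were tested on simulated data. Gene positions, coding sequences and pseudogenes came from GENCODE (GRCh37), and transcript starts from RefSeq (GRCh38.p14).

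Named members were the 5 highest and 5 lowest by each difference, on the TPM and the share scale, the 5 of highest mean and the 5 of largest and smallest SD of the share, among members with a mean of at least 10 TPM, with RPS15 and RPL38, the stalk, 5S and copy lists, and the 2 highest and 2 lowest of other lists. Other members and the genes named beside EIF4EBP1 and MYC were chosen after their values were seen. Some genes that this rule would name are not reported here. Members, lists and the border of 8000 were chosen with earlier results of these data known. Alternatives were other pseudocounts (0.1 and 10), medians, scalings, detection limits, filters and sets of cells, and a line fitted on the number of detected genes. Sums of RPL21, RPL13A and RPL26 with their copies were added after the values were seen.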

Additional observations from a re-analysis of the deposited data

How the results depend on the processing

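No paired analysis was possible because the replicate numbers only count single cells within a telomere label and no test was made. Under the other settings tried, 76 values of the comparisons stayed within 1.5 times (counts) or within the SD between cells of 0.66 (medians) or within 0.1 (coefficients), 24 moved further and 1 reversed. For Long against Short cells, the 51 higher members became 13 on the median-ratio scale, 2 in gene-rich cells and 13 after a line on the number of detected genes was removed. The 1 lower member became 13, 1 and 0 under these in turn, 2 with medians over cells or in gene-poor cells, and 0 with the same sum of non-member TPM or without the 12 cells of fewest genes. The median difference of 0.73 became -0.022 on the median-ratio scale, 0.087 in gene-rich cells and 0.279 after the line. On the share scale the 29 higher members became 17 with medians, 1 in gene-rich cells and 16 after the line, and the 3 lower members became 5, 1 and 0. Between gene-rich and gene-poor cells, the 0 lower members became 1 without the 12 cells and 1 with detection above TPM 10. On the share scale the 15 higher members became 6 with medians, and the 6 lower members became 10 with medians, 3 without the 12 cells and 2 with detection above TPM 0. The coefficient of 0.730 became 0.577 with detection above TPM 0, 0.459 in gene-rich and 0.398 in gene-poor cells. For single genes, 435 values stayed within the spread between cells, 13 moved further and 8 reversed. A change of sign was counted as reversed only where the main difference was past 1.5 times. In gene-rich cells, with 3 Short cells, the Long and Short difference was -0.17 for RPL11, -2.50 for RPL21, -0.017 for RPL39L, -0.30 for RPL5, -0.051 for RPS4X and 0.38 for RPS15. It was -0.069 for RPL27A on the median-ratio scale, and RPL21 gave -0.59 between gene-rich and gene-poor cells with detection above TPM 10. Some Long and Short differences under the fold also changed sign, outside this count. RPL35 went from -0.45 to 0.38 in gene-rich cells, and RPL38 from 0.13 to -0.64 on the median-ratio scale. The cause of these changes was not tested, and without read numbers a value of 0 TPM cannot be told apart from a missed mRNA.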

Other observations

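Genes of ribosomal proteins outside the symbol rule gave values of their own. FAU, the 40S protein made as a ubiquitin-like fusion, differed by 0.17 between Long and Short cells, and GNB2L1, the scaffold protein RACK1, by 0.80. RPL36AL, a copy of RPL36A, went the other way with -0.51. RPL36AL ran from 502 to 1893 TPM with a median of 925 in gene-rich cells and from 103 to 6715 with a median of 1406 in gene-poor cells, a difference of -0.58. RPL36A itself ran from 457 to 2101 TPM with a median of 1275 in gene-rich cells and from 1.53 to 2787 with a median of 541 in gene-poor cells, a difference of 1.41. The sets overlapped for both genes, and their medians lay in opposite order.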
